A study of Mus musculus with 8 samples.

Results

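The guanylate-binding proteins (GBPs) and the immunity-related GTPases (IRGs) were followed in mouse microglia on 8 whole-transcript expression arrays. The members were 10 listed gene symbols, looked up among the array rows that carry 1 gene symbol. Of these, 8 were found: Gbp2, Gbp3, Gbp7, Gbp9, Igtp, Irgm1, Irgm2 and Iigp1. The other 2, Gbp5 and Gbp6, lie on rows annotated to more than 1 gene (with Gbp2b and with Gbp10), so no value was assigned to them. The 8 members are 8 of 30743 named genes and 8 of the 18244 that were bright enough to be tested. The test took in each gene that exceeded the median of named rows on at least 1 array. Of the 8, 7 members were above it on all 8 arrays. Gbp2 was below it on both naive arrays and above it on the other 6, so it entered the test through the states in which it was high.

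The arrays crossed 2 genotypes with 4 states, with 1 array in each of 8 groups, all from mice labelled C57Black/6J. The control genotype is labelled FL, F/F on the p50 array, and "wt" in the source text of the iguratimod array. The other genotype, icKO, carries a conditional knockout, which the series title places in oligodendroglia and not in the microglia that were measured. The promoter that drives the deletion, the age and sex of the mice and the number of mice behind an array are not given in the sources used here. Mice were naive or had EAE, experimental autoimmune encephalomyelitis, in which an immune attack on myelin models multiple sclerosis. The EAE mice were untreated, received the antirheumatic drug iguratimod (EAE IGU), or belong to a pair marked p50, a mark that the labels leave unexplained. The knockout itself was not analysed here.

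Levels are given as log2(intensity + 16), so a difference of 1 is a doubling of intensity + 16. For bright genes this is close to a doubling of intensity, and for dim ones it is more than that. Fold differences are those of intensity + 16. Levels of different genes are not compared with each other. The arrays had median intensities of 243 to 269. Of 10 listed microglia markers 9 were named, and all 9 were above the median of named rows on every array, with a mean level between 13.21 and 13.99. The p50 arrays stood apart in the X-linked RNA Xist, at 15.90 and 16.64 against 7.71 to 8.30 on the other 6, so differences that involve the p50 state cannot be told apart from a difference in sex.

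GBPs and IRGs are GTPases that cells make in large amounts in response to interferon, above all interferon gamma from T cells and natural killer cells. They assemble on the vacuoles that shelter intracellular parasites and bacteria, break these membranes and expose the contents to inflammasomes and to autophagy proteins. Within the IRG family, Irgm1, Irgm2 and Igtp (also called Irgm3) are regulators that sit on the cell's own membranes and hold effector IRGs such as Iigp1 in check. Interferon gamma acts mainly through the gamma-activated site (GAS) in promoters, and type I interferon mainly through the interferon-stimulated response element (ISRE), which interferon regulatory factors such as IRF1 also bind. In microglia, the resident macrophages of the brain and spinal cord, these genes are known as markers of interferon exposure.

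The genes lie in clusters, Gbp2, Gbp3 and Gbp7 on chromosome 3, Gbp9 on chromosome 5, and Irgm1, Igtp and Irgm2 on chromosome 11. Igtp and Irgm2 are neighbours. RefSeq promoter windows of build GRCm38.p6, which run from 250 bases before a start site to 50 after it, matched 7 of the 10 listed genes, Gbp5 among them. They were searched for the GAS letters TTCNNNGAA, which read the same on both strands, and on both strands for the ISRE letters, which are GAAA, any 2 bases and GAAA again. All 7 genes had an ISRE match before a start site, and 4 of them also had a GAS match. Among all 32851 windows, 3.44% held the ISRE letters, 8.3% the GAS letters and 0.454% both. A match is a description of letters and shows no binding. Gbp3 has a second start site in the table, whose window held neither motif.

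The 200 bases before the start site are shown for the 6 measured members with a window, so that their interferon motifs can be set beside their values. Capitals mark the motif matches. In Gbp2 (chr3:142620463-142620662, plus strand) a single ISRE lies 59 bases before the start, in the reverse direction. In Gbp3 (chr3:142559844-142560043, plus strand) 2 reverse ISRE matches overlap and form 1 capital run. In Gbp7 (chr3:142530136-142530335, plus strand) 2 GAS matches are followed by a reverse ISRE.
Gbp2: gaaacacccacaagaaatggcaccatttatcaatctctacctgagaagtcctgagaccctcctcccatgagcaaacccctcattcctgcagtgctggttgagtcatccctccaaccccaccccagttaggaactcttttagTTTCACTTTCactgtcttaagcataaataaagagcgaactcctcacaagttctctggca
Gbp3: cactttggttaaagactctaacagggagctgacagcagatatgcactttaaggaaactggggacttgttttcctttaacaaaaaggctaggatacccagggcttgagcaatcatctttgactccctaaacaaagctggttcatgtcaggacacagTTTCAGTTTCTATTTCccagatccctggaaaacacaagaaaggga
Gbp7: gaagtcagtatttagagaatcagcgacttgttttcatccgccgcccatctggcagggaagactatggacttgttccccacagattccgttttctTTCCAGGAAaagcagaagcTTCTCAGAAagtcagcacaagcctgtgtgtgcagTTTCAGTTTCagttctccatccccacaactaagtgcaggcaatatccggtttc

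The IRG promoters printed below carry the ISRE in the forward direction. That is not a rule of the family, since the IRG gene Gm12250, not a listed member, had its ISRE matches in reverse. In Igtp (chr11:58199356-58199555, plus strand) and Irgm2 (chr11:58214777-58214976, plus strand) a GAS is followed after 2 bases by an ISRE, and the longest run of letters that these 2 stretches share is 40 bases. In Irgm1 (chr11:48871421-48871620, minus strand, written in the direction of the gene) 2 ISRE matches overlap and no GAS was found.
Igtp: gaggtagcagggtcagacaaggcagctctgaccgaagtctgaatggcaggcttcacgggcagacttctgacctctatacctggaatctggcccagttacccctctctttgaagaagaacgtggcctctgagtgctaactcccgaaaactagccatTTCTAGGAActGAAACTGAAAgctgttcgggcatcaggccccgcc
Irgm2: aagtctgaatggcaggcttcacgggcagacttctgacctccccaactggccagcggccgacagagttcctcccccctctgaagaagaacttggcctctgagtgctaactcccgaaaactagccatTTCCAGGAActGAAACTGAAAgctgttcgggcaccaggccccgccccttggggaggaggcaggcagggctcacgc
Irgm1: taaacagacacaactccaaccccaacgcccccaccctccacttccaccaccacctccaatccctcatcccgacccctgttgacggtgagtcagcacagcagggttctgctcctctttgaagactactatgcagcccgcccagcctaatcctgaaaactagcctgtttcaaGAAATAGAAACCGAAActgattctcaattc

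**Figure D1:**
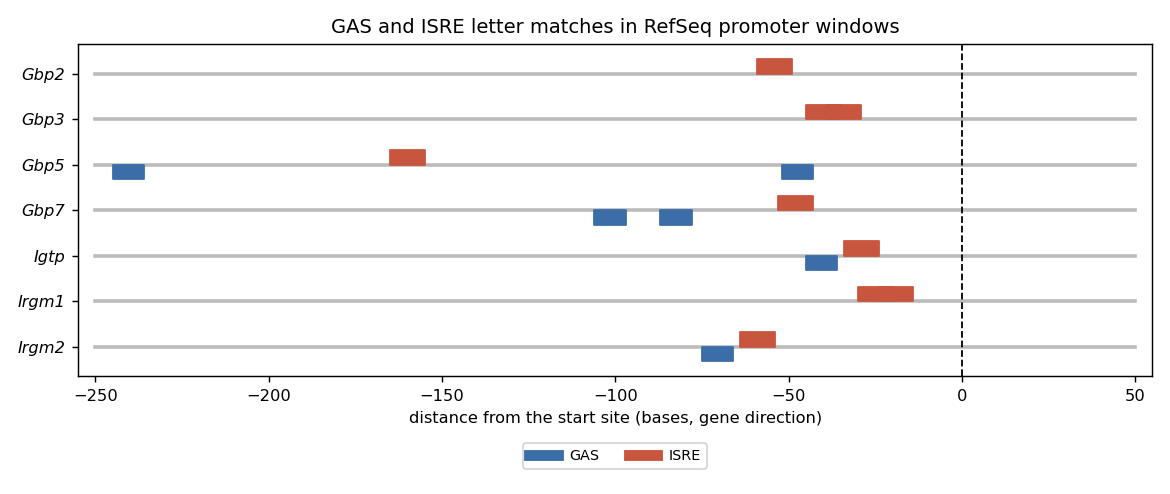
Position of GAS (blue) and ISRE (red) letter matches relative to the start site, in bases and in the direction of the gene, for the 7 listed genes with a RefSeq promoter window. All 7 genes have an ISRE match before the start site, and Gbp5, Gbp7, Igtp and Irgm2 also have a GAS match.

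In EAE, all 4 measured GBPs were higher than in naive microglia, and so were Igtp and Irgm1. These 6 of 8 members passed the test over all genes, against a background of 3.33% of tested genes called higher. The median difference of the members was 1.34 on the log2 scale, against 0.01 for all genes tested. The test was limma's moderated test with state and genotype as additive terms over the 8 arrays, with Benjamini-Hochberg adjustment over 18244 genes. With no group holding more than 1 array, the spread in this test is how far the genotype and state differences fail to add up. For all 8 members both EAE arrays lay above both naive arrays, as they did for 29.5% of all genes tested. Within the control pair alone 4 of 8 members were at least 2-fold higher in EAE (4.59% of genes), and within the icKO pair 7 of 8 (4.72%). After median centring of the arrays these counts were 6 and 7, since Gbp9 and Iigp1, both 1.96-fold higher in the control pair, lie just under 2-fold. After a further quantile normalization they were 4 and 7. The shares over all genes were not computed after these changes. Over all 14 pairs of single arrays that were compared, 30 of 112 member values were at least 2-fold apart, against 3.92% of all values.

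Gbp2, a GBP that coats parasite vacuoles, lay at 8.14 in the naive control and 7.90 in naive icKO, and at 10.63 and 11.46 in EAE. In linear intensity these are 265 and 222 against 1573 and 2800. It rose by 3.03 ± 0.31 (SE) on the log2 scale, or 8.17-fold, the largest difference among the members (limma adjusted p = 0.0199). Gbp7, which helps to assemble the phagocyte NADPH oxidase, lay at 9.73 and 9.79 in naive and at 11.49 and 12.31 in EAE. It rose by 2.14 ± 0.23, or 4.42-fold (adjusted p = 0.0214). Both genes were higher in EAE in each genotype, and their levels in EAE were highest on the icKO array.

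Gbp3 lay at 9.03 and 8.62 in naive and at 9.81 and 10.11 in EAE, and it rose by 1.14 ± 0.20 (adjusted p = 0.0457). Gbp9, of the chromosome 5 cluster, lay at 9.68 and 9.45 in naive and at 10.65 and 10.95 in EAE, and it rose by 1.24 ± 0.22 (adjusted p = 0.0445). Both rises were smaller than those of Gbp2 and Gbp7. Neither gene passed without the filter on dim genes (adjusted p of 0.0623 and 0.0613) or after a further quantile normalization (0.0723 and 0.0797).

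Among the regulatory IRGs, Igtp lay at 9.996 and 10.16 in naive and at 11.47 and 11.74 in EAE. It rose by 1.53 ± 0.12, or 2.89-fold, with the lowest adjusted p of the members (0.0161). Irgm1, which also takes part in autophagy and mitochondrial quality control, lay at 8.63 and 8.52 in naive and at 9.79 and 9.59 in EAE, and rose by 1.11 ± 0.14 (adjusted p = 0.0229). For Irgm1 the control array was the higher of the EAE pair.

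Irgm2, a regulatory IRG that restrains the caspase-11 inflammasome, differed from its neighbour Igtp. It lay at 9.51 and 9.46 in naive, at 10.26 in the EAE control and at 9.63 in EAE icKO. Its difference of 0.46 ± 0.22 did not pass (adjusted p = 0.332), with a 95% interval from -0.09 to 1.003. The effector IRG gene Iigp1 lay at 8.99 and 8.63 in naive and at 9.96 and 10.53 in EAE. Its difference of 1.44 ± 0.36 did not pass either (adjusted p = 0.104), and the control and icKO arrays differed in EAE by 0.57. Igtp and Irgm2 are paralogs, and related genes of these families can share probe sequence, which makes their separate values uncertain.

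The counts in EAE rested on single arrays. With either naive array or either EAE array left out (control or icKO), 0 of 8 members passed, and limma then called 0 genes in all. The differences stayed above 0 in each of these fits, for Gbp2 between 2.63 and 3.43 and for Igtp between 1.47 and 1.59. Those of Irgm2 and Iigp1 moved more. Irgm2 gave 0.10 without the EAE control array and 0.81 without the EAE icKO array, and Iigp1 gave 0.96 without the naive icKO array and 1.91 without the naive control array. Without either p50 array, or without both, 3 of 8 passed, namely Gbp2, Gbp7 and Igtp.

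**Figure D2:**
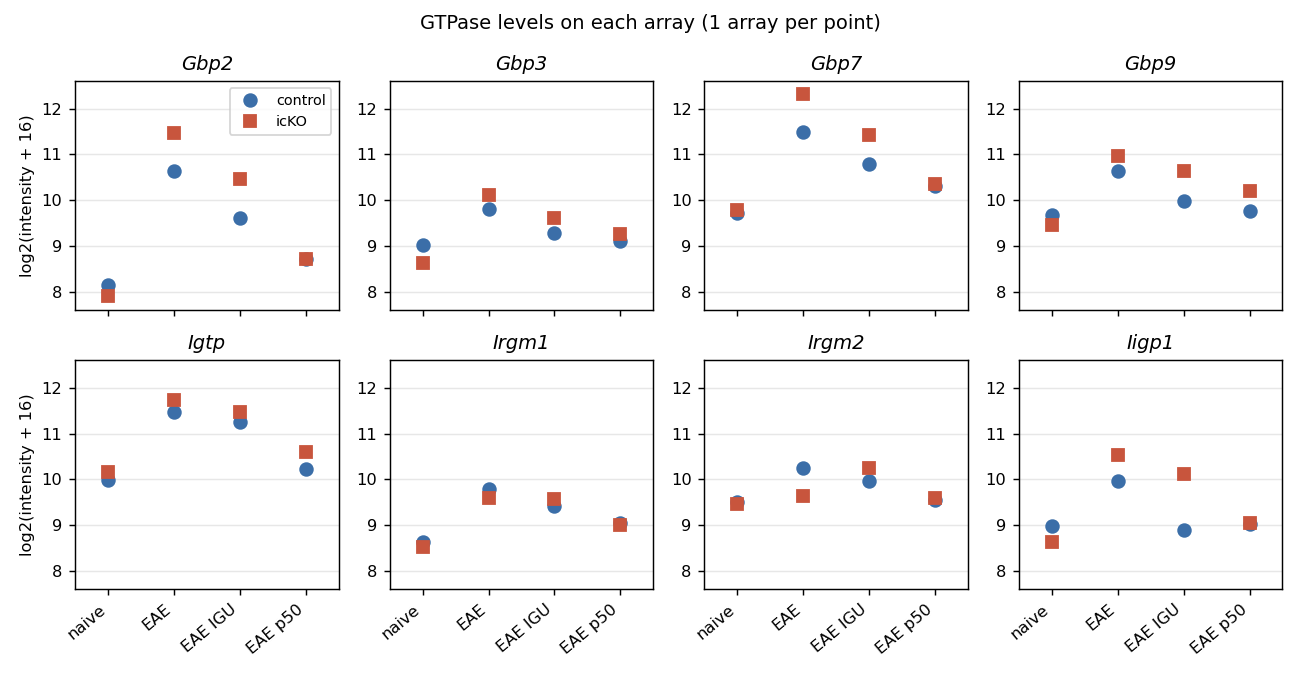
Level of each of the 8 measured GTPase genes, as log2(intensity + 16), by state, with 1 point per array (blue circles control, red squares icKO). For every gene both EAE arrays lie above both naive arrays, and Irgm2 shows the smallest difference, 9.46 against 9.63 in icKO.

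The other genes of both families were read from a list of 17. Of these, 9 were named on rows of their own and tested, and all 9 were higher in EAE, with 4 passing. Gbp4 rose by 1.99 ± 0.23 (adjusted p = 0.0214), Gbp8 by 1.67 ± 0.20 (0.0229) and F830016B08Rik, a gene of the IRG family, by 1.74 ± 0.31 (0.0431). Gm12250, also called Irgb10, which ruptures bacterial membranes after GBPs have bound, rose by 1.84 ± 0.24 (0.0249). Gm4951 gave 3.15 ± 0.65 (0.0636), Gvin1, a very large interferon-inducible GTPase, gave 1.26 ± 0.28 (0.0748), and Gbp11 gave 0.98 ± 0.25 (0.104). The smallest differences were those of Gm4841, at 0.64 ± 0.28 (0.282), and 9930111J21Rik2, at 0.45 ± 0.19 (0.280). The adjusted p-values are from the same limma fit.

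The pathway that induces these genes was described by lists as well. The interferon gamma gene Ifng was too dim to be tested, at 7.06 to 7.35 on the 8 arrays, below the median of named rows on each. In the interferon gamma signalling list 1 of 9 tested genes passed, the receptor chain gene Ifngr2, which rose by 0.90 ± 0.16 (adjusted p = 0.0428). The other receptor chain gene Ifngr1 gave -0.21 ± 0.17, and Irf1, the factor that drives GBP transcription, gave 0.17 ± 0.13. The transcription factor gene Irf8 gave 0.72 ± 0.25 (0.206), the phosphatase genes Ptpn6 and Ptpn2 gave 0.58 ± 0.22 (0.238) and 0.14 ± 0.17 (0.692), and the kinase genes Jak2 and Jak1 gave 0.47 ± 0.19 (0.257) and 0.25 ± 0.17 (0.488). Ciita, the activator of MHC class II genes, gave 0.26 ± 0.12 (0.294). Among 9 tested other targets of interferon gamma all 9 were higher in EAE and 6 passed. Those 6 included the chemokine gene Cxcl9, with a rise of 5.49 ± 0.86 (0.0334). The peptide transporter gene Tap1, at 1.66 ± 0.22 (0.0258), and the checkpoint ligand gene Cd274, at 1.45 ± 0.17 (0.0225), were also among them.

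In the type I interferon signalling list 8 of 9 were higher in EAE and 3 passed. Stat2 rose by 1.99 ± 0.25 (adjusted p = 0.0240), the receptor gene Ifnar1 by 0.92 ± 0.16 (0.0423) and Irf7 by 0.89 ± 0.15 (0.0412). Among type I interferon targets 16 of 16 were higher and 2 passed. The antiviral gene Oas2 rose by 2.33 ± 0.43 (0.0491) and Rsad2 by 1.11 ± 0.18 (0.0365). The list medians were 1.59 for the other interferon gamma targets and 0.78 for the type I targets, against 1.34 for the 8 GTPase genes. These lists were not tested against each other. Of 9 tested genes that act downstream of GBPs in the inflammasome, 7 were higher and 2 passed. Casp1 and Casp4 (caspase-11) rose by 1.41 ± 0.17 and 1.68 ± 0.27 (0.0229 and 0.0350).

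Markers of blood leukocytes followed the GTPase genes to unlike degrees. Over the 8 arrays the list mean correlated with the member mean at Pearson r = 0.976 for monocyte and 0.808 for neutrophil markers. For T cell and natural killer cell markers r was 0.722. Of 8 tested monocyte markers all 8 were higher in EAE and 3 passed. Ly6c2 rose by 4.32 ± 0.40 (limma adjusted p = 0.0193), Ms4a4c by 2.61 ± 0.38 (0.0305) and Chil3 by 2.24 ± 0.38 (0.0413). The summed intensity of the 9 named monocyte markers was 2814 to 3534 on the naive arrays and 27121 to 28090 on the EAE arrays. For 10 neutrophil markers it was 6692 to 26302 and 103125 to 900221, with 0 of 9 tested genes passing. For 10 T cell and natural killer cell markers it was 2278 to 2345 and 2431 to 3085, with 0 of 8 passing and 3 above the median of named rows on the EAE control array and 6 on the EAE icKO array. Of 3 tested endothelial markers 1 was higher and passed, Ly6c1, which rose by 1.06 ± 0.19 (0.0444), and 2 were lower. Summed intensities over the 8 arrays stayed within 1144 to 1433 for 5 B cell markers, 1448 to 1974 for 6 astrocyte markers and 1321 to 1444 for 7 oligodendrocyte markers. The proliferation gene Mki67 lay at 8.02 and 7.49 in naive and at 11.53 and 11.09 in EAE. None of these markers is listed at 0. In such bulk RNA, more cells of a type and more RNA per cell cannot be told apart, and the part of these cells in the GTPase levels was not tested.

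Iguratimod was compared with untreated EAE next. Of the 8 members 7 were lower with iguratimod on average over the genotypes and 0 passed, as for all genes, of which limma called 0 (lowest adjusted p = 0.508). Unadjusted p-values under 0.05 were found for 3 members and for 1552 genes. The background is therefore 0% called. The member median was -0.50, against -0.01 for all genes. Both EAE arrays lay above both iguratimod arrays for 6 of 8 members and for 18.9% of genes tested. A level at least 2-fold lower was found for 2 of 8 members in the control pair (1.7% of genes) and for 0 in the icKO pair (1.52%). After a further quantile normalization these counts were 1 and 0. The monocyte sum was 5570 to 12535 on the iguratimod arrays, and its part in these differences was not tested.

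Gbp2 lay at 9.61 in the treated control and 10.46 in treated icKO, against 10.63 and 11.46 in untreated EAE, a difference of -1.01 ± 0.31 (limma adjusted p = 0.533). Gbp7 lay at 10.79 and 11.41, a difference of -0.80 ± 0.23 (0.530). For both genes each genotype had its lower value under iguratimod. Igtp lay at 11.26 and 11.47, a difference of -0.25 ± 0.12 (0.642), and Irgm1 at 9.41 and 9.57, a difference of -0.20 ± 0.14 (0.749). The regulatory IRGs thus had smaller differences from untreated EAE than the GBPs. That contrast between the subfamilies was not tested.

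Iigp1 and Irgm2 had unlike values in the genotypes under iguratimod. In control, Iigp1 lay at 9.96 in EAE and at 8.90 with iguratimod, which is below its naive control level of 8.99. In icKO it lay at 10.53 and 10.12, with a naive level of 8.63. Irgm2 in control was at 10.26 in untreated EAE and at 9.97 under the drug, and in icKO at 9.63 and 10.24, so it was lower with the drug in one genotype and higher in the other. The genotypes' changes with iguratimod were compared in a limma fit with 1 residual degree of freedom. Its spread is how far the naive and p50 pairs disagree in their genotype difference, as moderated by limma. The difference between the genotypes in this change was 0.89 ± 0.26 for Irgm2 and 0.65 ± 0.32 for Iigp1. It passed for 0 of 8 members and 0 genes (adjusted p = 0.588 and 0.622, 1525 genes at an unadjusted p under 0.05), and the 95% interval for Irgm2 ran from 0.15 to 1.63.

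Against naive, the iguratimod arrays were higher on average for all 8 members, with a median of 0.83, and 7 of 8 had both iguratimod arrays above both naive arrays, as did 20.7% of genes tested. Of the 8, 0 passed, while limma called 1 gene, which is 0.00548% of those tested. Unadjusted p-values were under 0.05 for 7 members and for 1996 genes. Igtp gave 1.28 ± 0.12 (adjusted p = 0.162), Gbp2 gave 2.02 ± 0.31 (0.162) and Irgm1 gave 0.91 ± 0.14 (0.162). In control 3 members (2 after quantile normalization) were at least 2-fold higher than in naive, and in icKO 6, against 1.78% and 2.04% of genes. The test of that difference, a fit chosen after the data were seen, called 0 members and 0 genes (1409 at an unadjusted p under 0.05). In it the change from naive was larger in icKO for all 8 members, by 1.58 ± 0.36 for Iigp1 (adjusted p = 0.632) and 0.87 ± 0.24 for Gbp9 (0.632).

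The p50 arrays held lower levels than the untreated EAE arrays without that mark for all 8 members, with a median difference of -1.01. Of these, 3 passed, against 1.62% of genes called lower: Gbp2, which fell by 2.33 ± 0.31 (limma adjusted p = 0.0256), Gbp7, which fell by 1.58 ± 0.23 (0.0334), and Igtp, which fell by 1.20 ± 0.12 (0.0126). Both EAE arrays lay above both p50 arrays for 8 of 8 members and for 30.9% of genes. In the control pair 3 members were at least 2-fold lower (2.47% of genes), and in the icKO pair 4 (4.17%). After quantile normalization these counts were 3 and 3. Gbp2 lay at 8.72 on both p50 arrays, Gbp7 at 10.30 and 10.35, and Igtp at 10.22 and 10.59. Irgm1 gave -0.66 ± 0.14 (0.0708) and Iigp1 gave -1.20 ± 0.36 (0.150).

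Leaving out any one of the control EAE, icKO EAE, control p50 or icKO p50 arrays left 0 members passing in this comparison. The fall of Gbp2 then ranged from -2.64 to -2.01. Without either naive or either iguratimod array 2 passed, with Gbp7 at adjusted p of 0.0502 or 0.0522. With all arrays, 8 of the 9 other family genes tested were lower as well, and 3 passed. Gbp4, Gbp8 and Gm12250 fell by 1.53 ± 0.23, 1.29 ± 0.20 and 1.68 ± 0.24 (adjusted p of 0.0358, 0.0412 and 0.0321). Of the 9 other interferon gamma targets all 9 were lower and 1 passed, Cd274, with a difference of -1.01 ± 0.17 (0.0481). Of 16 type I targets 15 were lower and 2 passed, Ifit1 and Rsad2, which fell by 1.08 ± 0.17 and 1.03 ± 0.18 (0.0412 and 0.0490). Of 9 inflammasome genes 6 were lower and 3 higher. Those that passed were Casp1, which fell by 1.04 ± 0.17 (0.0425), and Nlrp3, which rose by 0.78 ± 0.13 (0.0417). The monocyte marker Ly6c2 fell by 4.41 ± 0.40 (0.00833) in the same comparison, and the monocyte sum was 3808 to 4718 on the p50 arrays. Of 3 endothelial markers 1 was lower and passed, Ly6c1, which fell by 1.35 ± 0.19 (0.0305), and 2 were higher. Of 9 microglia markers 7 were higher and 2 lower, and 1 passed, Tmem119, which rose by 0.90 ± 0.16 (0.0485). The part of these markers was not tested.

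Against naive, the p50 arrays were higher for all 8 members with both p50 arrays above both naive arrays, as for 31.6% of genes tested. The median was 0.38 and 0 members passed, against 0.367% of genes called higher (3 members and 3742 genes at an unadjusted p under 0.05). Irgm1 gave 0.45 ± 0.14 (limma adjusted p = 0.152), Gbp2 gave 0.70 ± 0.31 (0.267) and Irgm2 gave 0.09 ± 0.22 (0.854). The value of Gbp2 was 0.31 without the naive icKO array, 1.10 without the naive control array and 0.46 without the p50 control array. The p50 comparisons share arrays with the EAE comparison, so their values are not independent of it. Among the 16 type I targets 10 were higher against naive and 6 lower, and 1 passed, Bst2, with a rise of 3.01 ± 0.36 (0.0339).

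**Figure D3:**
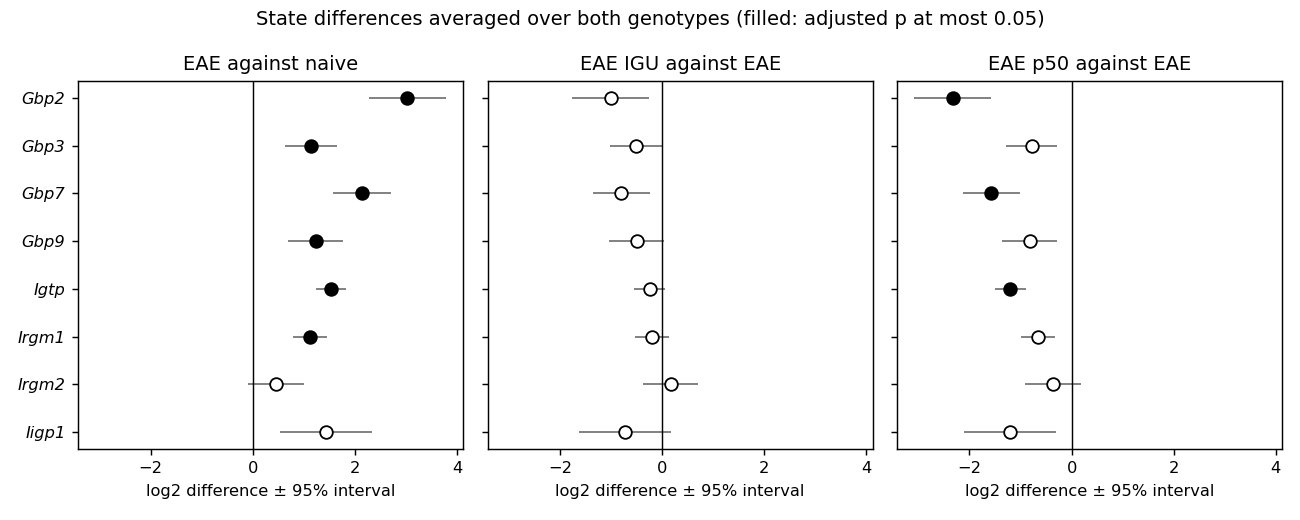
Log2 difference of each GTPase gene in EAE against naive, EAE IGU against EAE and EAE p50 against EAE, averaged over both genotypes in the limma fit, with 95% intervals. Filled points passed at an adjusted p of 0.05 over all genes, which 6, 0 and 3 of the 8 genes did.

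Genotype was compared last. Over the 4 states 6 of 8 members were higher in icKO, with a median of 0.27 against -0.02 for all genes, and 0 passed, as for all genes (0% called, 991 genes and 1 member at an unadjusted p under 0.05). Igtp gave 0.25 ± 0.09 (limma adjusted p = 0.882, 95% interval 0.04 to 0.46), and Gbp7 gave 0.39 ± 0.16 (0.882, -0.01 to 0.78). These 2 genes were higher in icKO in 4 of 4 states, as were 4.9% of genes tested. Irgm1 gave -0.05 ± 0.10 (0.959, -0.29 to 0.19).

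Within single states, where 1 array stood against 1 array and no test was made, the members differed from each other. In the naive pair 6 of 8 were lower in icKO, with Gbp3 at -0.41, Iigp1 at -0.36 and Gbp2 at -0.24. In the EAE pair 6 of 8 were higher in icKO, with Gbp2 at 0.83, Gbp7 at 0.81 and Iigp1 at 0.57. Irgm1 and Irgm2 were lower there, at -0.20 and -0.63. The EAE icKO array thus held the highest level of all 8 arrays for each member except Irgm1 and Irgm2. Its Irgm2 level was 0.17 above that of naive icKO.

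Under iguratimod all 8 members were higher in icKO, by 0.16 for Irgm1 up to 1.22 for Iigp1, which is 2.33-fold the only member past 2-fold in that pair (1.27% of genes were higher by as much). In the p50 pair the differences lay between -0.04 for Irgm1 and 0.44 for Gbp9. The change from naive to EAE differed between the genotypes by 1.06 ± 0.50 for Gbp2, 0.92 ± 0.62 for Iigp1 and -0.57 ± 0.35 for Irgm2. None of the 8 passed in the limma fit of that difference with 1 residual degree of freedom, nor did any gene (adjusted p of 0.832, 0.965 and 0.948, with 0 members and 1135 genes at an unadjusted p under 0.05). The 95% interval for Gbp2 ran from -0.19 to 2.32, so a larger and an equal change in icKO were both within it. The spread behind that interval is how far the iguratimod and p50 pairs disagree in their genotype difference, as moderated by limma.

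**Figure D4:**
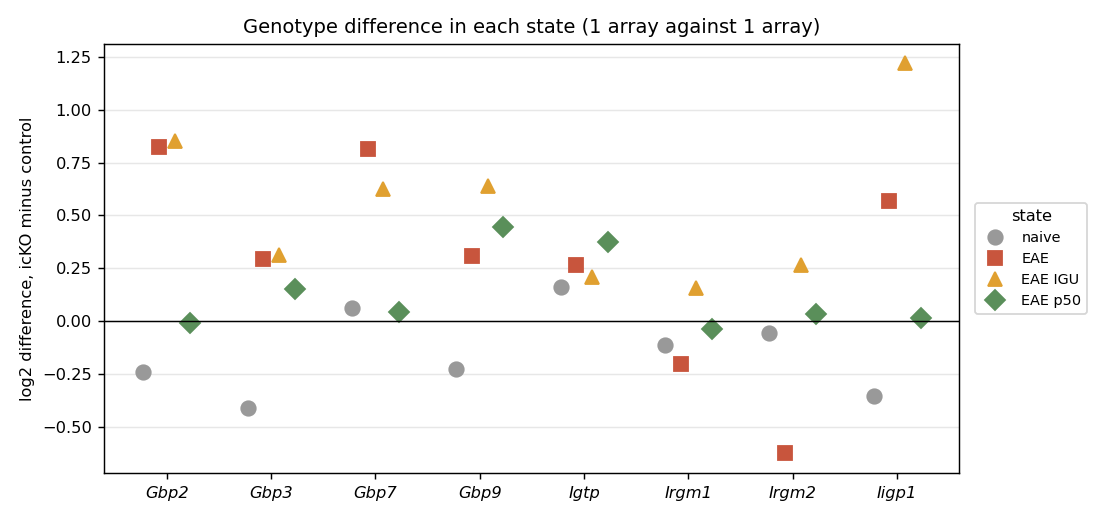
Difference between icKO and control for each GTPase gene, on the log2 scale, with 1 point per state (naive grey circles, EAE red squares, EAE IGU yellow triangles, EAE p50 green diamonds), each from 1 array against 1 array. In EAE the difference runs from -0.63 for Irgm2 to 0.83 for Gbp2, and under iguratimod all 8 points lie above 0.

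Cell type markers differed within these pairs too. In the EAE pair the neutrophil sum was 900221 in control and 103125 in icKO, and the monocyte sum was 27121 and 28090. That sum is mostly Ly6c2, at 14.27 in control and 13.96 in icKO, while Fn1 lay at 9.57 and 12.05, Chil3 at 9.87 and 10.85, and the mean level of the 9 named monocyte markers at 9.94 and 10.32. The genotype difference of the EAE change was above 0 for 7 of 8 tested monocyte markers, with 0 passing. For the microglia markers it was below 0 for 9 of 9, with a median of -0.73 and 0 passing (lowest limma adjusted p = 0.668), and their summed intensity was 505982 in EAE control and 430167 in EAE icKO. The homeostatic microglia gene P2ry12 lay at 13.52 and 12.67 on these arrays. Fn1, Chil3 and P2ry12 were chosen here after their values were seen. Under iguratimod the neutrophil sum was 41135 in control and 132631 in icKO, and the monocyte sum 5570 and 12535. In EAE, neutrophil markers were therefore lower where Gbp2, Gbp7 and Iigp1 were higher, and under iguratimod both were higher in icKO. For 8 tested T cell and natural killer cell markers the genotype difference of the EAE change was above 0 for 6 and below 0 for 2, with 0 passing. It was largest for Gzmb, at 0.86 ± 0.34, and Il2rb, at 0.84 ± 0.37. The 2 below 0 were Cd8a, at -0.24 ± 0.37, and Nkg7, at -0.30 ± 0.34. For the T cell marker Cd3e, which is 1 example from that list and not the largest, it was 0.64 ± 0.34. Cd3e lay at 9.09 on the EAE icKO array and at most at 8.23 on the other 7. What these markers contribute to the genotype differences was not tested.

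The members were then compared with each other over the 8 arrays, as a description. Gbp2 correlated with the mean of the 8 members at Pearson r = 0.995 and Gbp7 at 0.986, and 7 of the 8 were at 0.935 or above. Irgm2 was the exception at 0.681, and its lowest correlation with another member was 0.523, with Iigp1. The 8 points share 4 states, so these correlations are not independent of the state differences.

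Of 1718 other tested genes with an SD over the arrays of at least 0.5, the one most like the member mean was another GBP, Gbp8, at r = 0.990. Of the 10 genes most like it, with predicted and numbered genes not named, the rest were the p200 family genes Ifi211 (0.989), Ifi207 (0.981) and Ifi204 (0.979), Clec2d (0.986), the lysosomal thiol reductase gene Ifi30 (0.982), the MHC class I gene H2-Q4 (0.981), Tap1 (0.980), Gbp4 (0.978) and Cd274 (0.977). Over the same 8 arrays the mean of 9 other interferon gamma targets had r = 0.976 with the member mean, that of 16 type I targets 0.953, that of 8 monocyte markers 0.976, that of 9 type I signalling genes 0.979 and that of 9 interferon gamma signalling genes 0.570 (0.828 without the p50 arrays). This measure did not tell the target, type I signalling and monocyte lists apart.

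**Figure D5:**
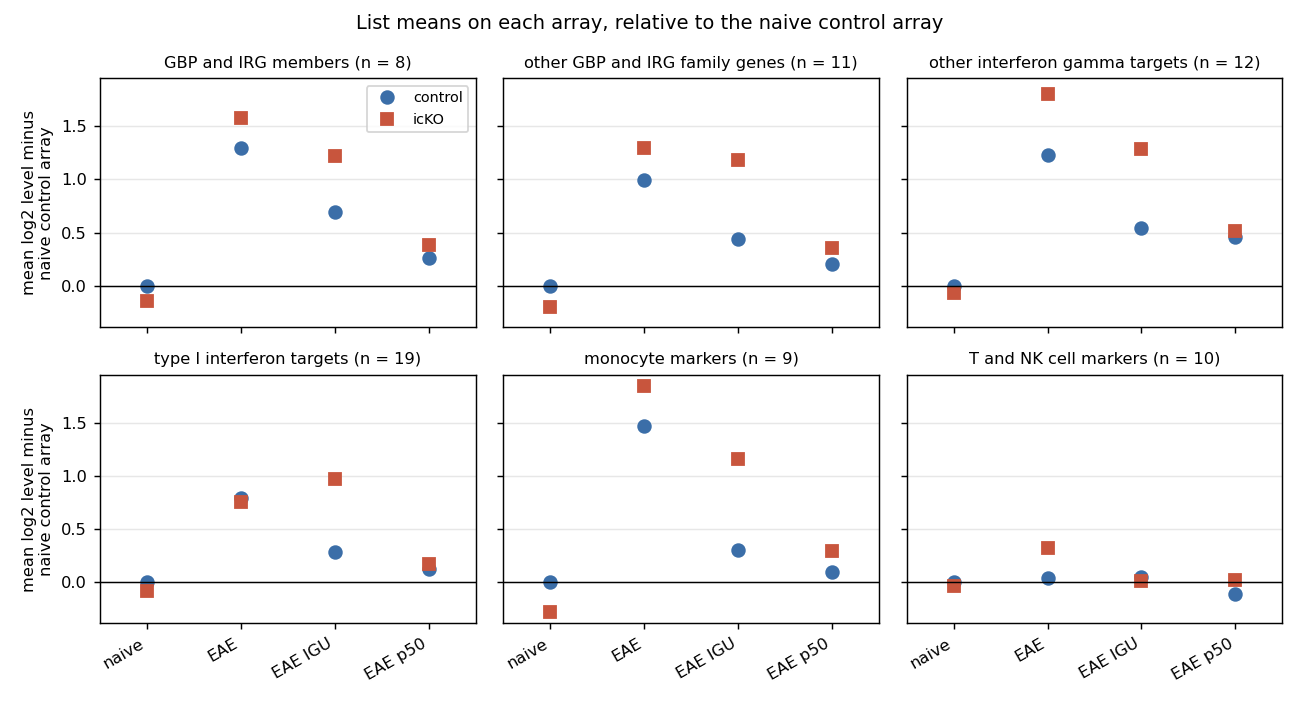
Mean log2 level of 6 gene lists on each array, minus the same mean on the naive control array, by state (blue circles control, red squares icKO, n is the number of named genes). The GTPase genes, the other family genes and the other interferon gamma targets are highest in EAE icKO. So are the monocyte markers and the T cell and natural killer cell markers. The type I targets are highest in icKO with iguratimod.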

How the data were processed

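Microglial RNA was purified with TRIzol and a column, amplified and biotin-labelled for whole-transcript arrays, per the labels' protocols. The authors deposited 1 linear intensity per array row. Affymetrix Expression Console is named in the submitters' processing notes, while summarisation and normalization are not given in the sources used here. The highest value, 999952, exceeds what a 16-bit scanner records (65535), and whether intensity is proportional to RNA amount is unknown. Among 65956 rows, 31216 had 1 gene (612 of them after names of the same gene were merged). Those with several genes (1534) or no name here (33206) were not used. The brightest row stood for each of 30743 genes, named through a GEO platform table and RefSeq records of GRCm38.p6. Values were analysed as log2(intensity + 16) with limma 3.58.1 in R 4.3.3, in an additive model with 3 residual degrees of freedom. Without replicates the p-values measure only the spread between these arrays. In the fits that compare the genotypes' changes, the pairs outside the comparison share 1 genotype effect. The spread there is how far those pairs disagree. The fits were tested on simulated data. Members and lists were chosen with earlier results of these data known. Named were all members, genes of other lists that passed or, where none passed, the largest differences (for some lists only examples), in EAE against naive all tested interferon gamma signalling and other family genes, and the 10 genes most like the members. Alternatives were the pseudocount (1 or 64), the filter (none or the 70th percentile), quantile normalization, median centring, the mean of a gene's rows, a trended robust prior, a 1.5-fold threshold, and leaving out arrays.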

Additional observations from a re-analysis of the deposited data

How the results depend on the processing

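Of the alternatives tried, changes of pseudocount, filter, normalization, gene summary and prior left between 4 and 6 members passing in EAE against naive and 3 in p50 against EAE. Leaving out arrays moved these counts most. In EAE against naive the count ranged from 0 to 4 of 8 when 1 array was left out (6 with all arrays), and it was 3 without both p50 arrays. In p50 against EAE it ranged from 0 to 2 of 8 (3 with all arrays). Over the 14 pairs of single arrays, 30 of 112 differences between members' values were at least 2-fold, against 3.92% of all values. At 1.5-fold there were 59, and the share over all genes was not computed there, so nothing is read from that count. The other counts of members passing were 0 with all arrays and in each alternative that could be fitted. Reversals were found for differences that had not passed. The genotype difference of the iguratimod change of Igtp was -0.06, and it was 0.0032 after quantile normalization and 0.047 after median centring. With 1 array left out, Iigp1 in p50 against naive ranged from -0.25 (without icKO naive) to 0.71, and Irgm2 with iguratimod against EAE from -0.19 (without icKO EAE) to 0.52, with -0.077 without icKO iguratimod. The genotype difference ranged from -0.12 to 0.0025 for Irgm1 and from -0.22 to 0.081 for Irgm2, above 0 without either EAE array. The cause was not tested. No paired analysis was possible because the labels carry no replicate numbers, and the additive fit already compares states within genotype and genotypes within state. Over all genes, 678 passed in EAE against naive, and 463 without a filter, 206 after quantile normalization and 231 without the p50 arrays. In p50 against naive 145 passed, and 370 with the stricter filter and 392 after median centring. Where the genotypes' EAE changes were compared 0 passed, and 14 with the stricter filter and 19 with a trended robust prior, with 0 members among them. The fits that compare the genotypes' changes could not be made with an array left out, nor p50 comparisons without both p50 arrays. Precision is limited by there being 8 arrays, and detection calls were not used here.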

Other observations

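Other large GTPases and the autophagy genes that IRGs depend on were read from lists as well. Of 5 tested genes of the Mx, dynamin and atlastin list 0 passed in EAE against naive (limma, with 3498 of 18244 genes at an unadjusted p under 0.05), with Mx1, an antiviral GTPase, at 0.69 ± 0.20 (adjusted p = 0.141) and the mitochondrial fission gene Dnm1l at 0.60 ± 0.16 (0.121). Of 11 tested autophagy conjugation genes 0 passed. Gabarap, of the Atg8 family that directs IRGs and GBPs to vacuoles, gave 0.84 ± 0.19 (0.0799), and Sqstm1, an autophagy receptor, gave 0.39 ± 0.15 (0.250).

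Gm4951, an IRG family gene, had the widest genotype difference among the other family genes, at -0.94 in the naive pair, -0.12 in EAE and 2.06 with iguratimod, where its level was 10.13 in control and 12.19 in icKO. For 16 type I interferon targets the median difference between icKO and control was -0.02 in EAE, with 8 of 16 higher in icKO, and 0.70 under iguratimod, with 15 of 16 higher. For 9 other interferon gamma targets it was 0.61 in EAE and 0.78 under iguratimod, with 9 of 9 higher in both. These are values of 1 array against 1 array and were not tested.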
